A study of Homo sapiens with 12 samples.

Results

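Aurora, Polo and NEK2 kinases and the chromosomal passenger complex were followed through 10 genes, AURKA, TPX2, BORA, PLK1, PLK4, NEK2, AURKB, INCENP, BIRC5 and CDCA8, of 19775 genes measured. The genes were chosen by name, and each was read from the probe sets that name it alone, 19 of 41091. RNA came from IMR-90 fibroblasts, which derive from human lung and divide a limited number of times in culture. The groups were, at 3% oxygen, old cells that were not senescent, taken at population doubling 53, and young cells taken at doubling 30, and, at 20% oxygen, senescent cells taken at doubling 48 and young cells again at doubling 30. Each had 3 arrays, 12 in all. All cells grew in serum and were collected before full confluence. The oxygen levels were held in separate incubators, so oxygen and incubator cannot be told apart. The labels call the replicates biological without saying what separates them. The p-values therefore weigh differences of group means against the spread between these arrays, whose number limits the precision.

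Levels are signals on a log scale taken as log2, with each probe set's own median across the series subtracted, and they are averaged over the probe sets of a gene. A level of 0 is therefore the middle of the series and not absence, and neither the level of one gene against another nor the presence of fibroblast markers can be read from it. Changes are differences of group means on the log2 scale, with the standard error of limma's fit over all 12 arrays. A gene is called at an adjusted p under 0.05 (Benjamini-Hochberg over all genes).

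Aurora A, made by AURKA, matures centrosomes and helps build the spindle. TPX2 activates it on spindle microtubules, and BORA is the cofactor with which it switches on the Polo kinase PLK1 before mitosis. PLK4 starts the duplication of centrioles, and NEK2 releases the linker that holds centrosomes together. Aurora B (AURKB) works inside the chromosomal passenger complex with the scaffold INCENP and the targeting subunits survivin (BIRC5) and borealin (CDCA8). The complex corrects attachments of chromosomes to the spindle and later guides cytokinesis. Many of these genes are transcribed late in the cell cycle, through CCAAT boxes and an element called the cell cycle genes homology region. In RNA of whole cultures, fewer cells in late cell cycle and less RNA per cell cannot be told apart.

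Promoters were searched because most of the 10 genes moved together between oxygen levels. No promoter was available for AURKA, TPX2 or BIRC5, so the motif counts do not cover them. RefSeq promoters (GRCh38.p14, 250 bases before to 50 after each start) matched 7 of the 10 genes, with several starts for some. A CCAAT box (CCAAT on either strand) lay in 8 of their 10 promoters, at least 1 for each of the 7 genes, and in 34.6% of all 35116 RefSeq promoters of that length. The promoters of the AURKB starts overlap, and their match is the same box, counted at each start. The homology region TTTGAA (either strand) lay in 5 of their 10 promoters, those of CDCA8, PLK1, BORA and INCENP and 1 of PLK4, and in 15.2% of all. The PLK4 match lies after the start, at position 39. Its variant TTTAAA, which reads the same on both strands, was found in 1 of their 10 promoters, that of PLK1, and in 12.2% of all. The E2F motifs TTTCCCGC, TTTGGCGC and TTTCGCGC (either strand) were in 0 of their 10 promoters, and at least 1 of them in 2.74% of all. The 150 bases before the start are shown 5′ to 3′ for CDCA8, NEK2 and BORA, which were higher at 3% oxygen in young and late cells, for PLK1, called in late cells but not in young ones, and for INCENP, not called in any comparison of the fit over all 12 arrays. Capitals mark the motifs, and positions count from the start of transcription, negative before it. In CDCA8 (chr1:37692366-37692515, plus strand) TTTGAA begins at -23 and overlaps the last of the CCAAT boxes at -115, -75 and -18. NEK2 (chr1:211675622-211675771, minus strand) has CCAAT boxes at -66 and -34. BORA (chr13:72727773-72727922, plus strand) has them at -96 and -64, and its TTTGAA, at -177, lies outside the stretch shown. PLK1 (chr16:23678739-23678888, plus strand) carries TTTAAA at -148 and -88, CCAAT at -73 and TTTGAA at -29. INCENP (chr11:62123861-62124010, plus strand) has CCAAT boxes at -107, -71 and -28 and TTTGAA at -10. A match describes these letters and does not show that a factor binds there.
CDCA8: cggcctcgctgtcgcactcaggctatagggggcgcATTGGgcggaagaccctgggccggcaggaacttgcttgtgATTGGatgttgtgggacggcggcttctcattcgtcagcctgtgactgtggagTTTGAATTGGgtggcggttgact
NEK2: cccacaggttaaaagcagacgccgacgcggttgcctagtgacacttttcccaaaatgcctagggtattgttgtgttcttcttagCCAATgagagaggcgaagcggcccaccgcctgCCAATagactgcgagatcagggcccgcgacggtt
BORA: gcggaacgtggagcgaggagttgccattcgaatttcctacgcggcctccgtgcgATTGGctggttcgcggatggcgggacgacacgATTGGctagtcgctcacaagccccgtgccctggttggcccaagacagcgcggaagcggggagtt
PLK1: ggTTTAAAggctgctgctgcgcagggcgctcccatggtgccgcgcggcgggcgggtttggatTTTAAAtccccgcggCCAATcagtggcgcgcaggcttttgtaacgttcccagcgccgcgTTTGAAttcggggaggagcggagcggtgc
INCENP: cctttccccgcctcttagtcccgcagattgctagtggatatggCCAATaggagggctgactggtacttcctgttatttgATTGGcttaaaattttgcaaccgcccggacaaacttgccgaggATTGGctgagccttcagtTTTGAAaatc

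**Figure D1:**
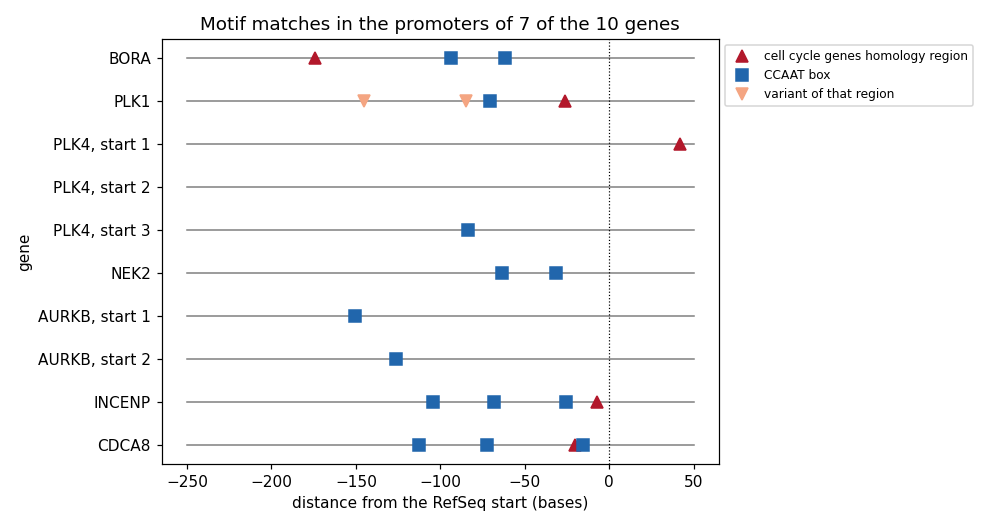
Motif matches on either strand in the RefSeq promoters of 7 of the 10 genes, a line per annotated start, against the distance from the start in bases (horizontal axis). Marker shapes separate CCAAT boxes, the homology region TTTGAA and its variant TTTAAA, and PLK1 and INCENP hold CCAAT and TTTGAA before the start as CDCA8 does.

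Across the 12 arrays most of the 10 genes divided by oxygen, while INCENP and PLK1 had arrays on both sides of 0 at each oxygen level. On the 3 arrays of old cells at 3% oxygen 10, 10 and 9 of them stood above 0, and on those of young cells at 3% 9, 9 and 9 did. On the arrays of senescent cells at 20% oxygen 1, 2 and 0 did, and on those of young cells at 20% 0, 0 and 1. These counts were not made over all genes. The mean level of the 10 genes was 1.11, 0.94 and 0.72 in old cells at 3%, 0.59, 0.44 and 0.53 in young cells at 3%, -0.56, -0.59 and -0.81 in senescent cells and -0.79, -0.72 and -0.68 in young cells at 20%. The old arrays lay highest, the young arrays at 3% below them, and the groups at 20% overlapped each other below both. TPX2 varied most, with an SD of 1.31 over the 12 arrays (rank 39 of 19775 genes), followed by CDCA8 (1.23) and BIRC5 (1.09). INCENP varied least (0.26), against a median of 0.20 over all genes.

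**Figure D2:**
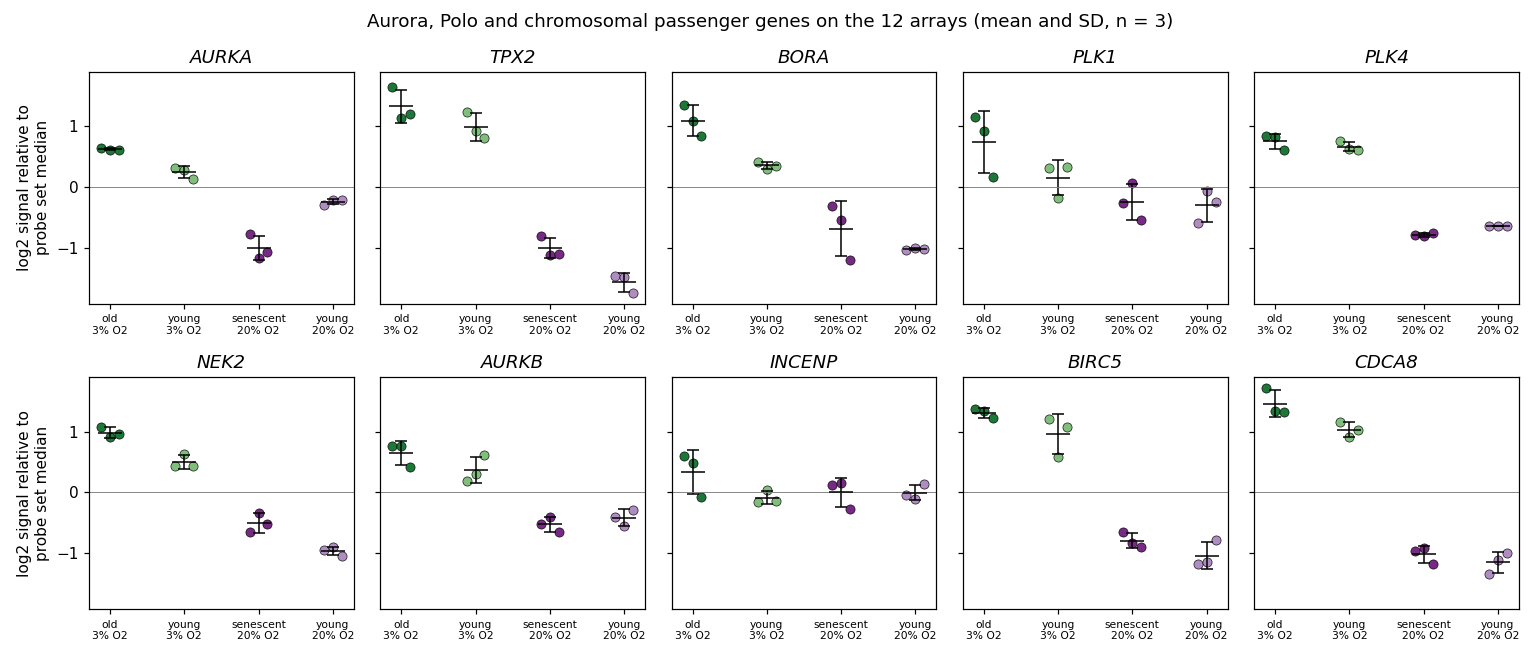
Level of each of the 10 genes on the 12 arrays (vertical axis, log2 signal relative to the probe set median) by group (horizontal axis); points are arrays, and bars are the mean and SD of 3. TPX2, BIRC5 and CDCA8 lie above 0.5 on every array at 3% oxygen and below -0.5 on every array at 20%, AURKA is lowest in senescent cells, and INCENP shows no such split.

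Young cells at 3% oxygen had higher levels of 8 of the 10 genes than young cells at 20% oxygen, and none was called lower. Over all genes 4.96% were called higher and 6.84% lower. TPX2, CDCA8 and BIRC5 differed most, by 3.99-fold to 5.85-fold, and PLK1 and INCENP were not called. The median change of the 10 genes was 1.34, against -0.03 over all genes. Every array at 3% lay above every array at 20% in 8 of the 10, against 12.5% of all genes.

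Among the Aurora A genes, TPX2 stood at 1.24, 0.92 and 0.81 in young cells at 3%, against -1.46, -1.48 and -1.74 in young cells at 20%. Both groups were tight and far apart, a change of 2.55 ± 0.16 (adjusted p = 3.47e-07), rank 13 among the rises of all genes. AURKA itself stood at 0.32, 0.28 and 0.14 in young cells at 3%, against -0.29, -0.20 and -0.22 in young cells at 20%. Its groups did not overlap either, but the change was smaller, 0.48 ± 0.10 (1.4-fold, adjusted p = 0.00813). It was not called from 208080_at, the one AURKA probe set without a suffix for shared sequence (0.34, adjusted p = 0.125 when such probe sets were left out for all genes). The cofactor BORA stood at 0.42, 0.30 and 0.35 in young cells at 3%, against -1.03, -0.99 and -1.02 in young cells at 20%, a change of 1.37 ± 0.19 (2.58-fold, adjusted p = 0.000324).

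The Polo kinases differed in what passed the test. PLK4 stood at 0.75, 0.62 and 0.62 in young cells at 3%, against -0.64, -0.64 and -0.64 in young cells at 20%, a change of 1.31 ± 0.09 (2.48-fold, adjusted p = 6.93e-07). PLK1 stood at 0.32, -0.18 and 0.33 in young cells at 3%, against -0.59, -0.07 and -0.25 in young cells at 20%. Its groups overlapped, and the change of 0.46 ± 0.25 was not called (adjusted p = 0.299, 95% interval -0.08 to 0.99). PLK1 was called higher in 1 of 25 alternative settings (lowest adjusted p = 0.0262), and not with any 1 array left out. The centrosome kinase NEK2 stood at 0.44, 0.63 and 0.44 in young cells at 3%, against -0.95, -0.90 and -1.04 in young cells at 20%, without overlap, a change of 1.46 ± 0.10 (2.75-fold, adjusted p = 1.11e-06).

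In the chromosomal passenger complex both targeting subunits and the kinase were called higher, and the scaffold, read from its only probe set, was not called. CDCA8 stood at 1.16, 0.91 and 1.03 in young cells at 3%, against -1.33, -1.11 and -0.996 in young cells at 20%, a change of 2.18 ± 0.13 (4.53-fold, adjusted p = 3.3e-07). BIRC5 stood at 1.21, 0.59 and 1.08 in young cells at 3%, against -1.17, -1.15 and -0.79 in young cells at 20%, a change of 1.99 ± 0.16 (3.99-fold, adjusted p = 2.54e-06). The array with its lowest value at 3%, replicate 2 of young cells, also had the widest gap between the 3′ and 5′ control probe sets for ACTB, a measure of RNA quality (log2 difference of 0.71, against -0.22 to 0.35 on the other 11 arrays). These control probe sets are centred too, so the gap compares arrays and is not the absolute 3′ to 5′ difference. With that gap as a covariate the change of BIRC5 was 2.07. The kinase AURKB stood at 0.19, 0.30 and 0.61 in young cells at 3%, against -0.40, -0.56 and -0.28 in young cells at 20%, a change of 0.78 ± 0.14 (1.72-fold, adjusted p = 0.00187). The scaffold INCENP stood at -0.16, 0.04 and -0.14 in young cells at 3%, against -0.04, -0.10 and 0.13 in young cells at 20%, so that its groups overlapped (-0.08 ± 0.17, adjusted p = 0.794, 95% interval -0.45 to 0.28).

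**Figure D3:**
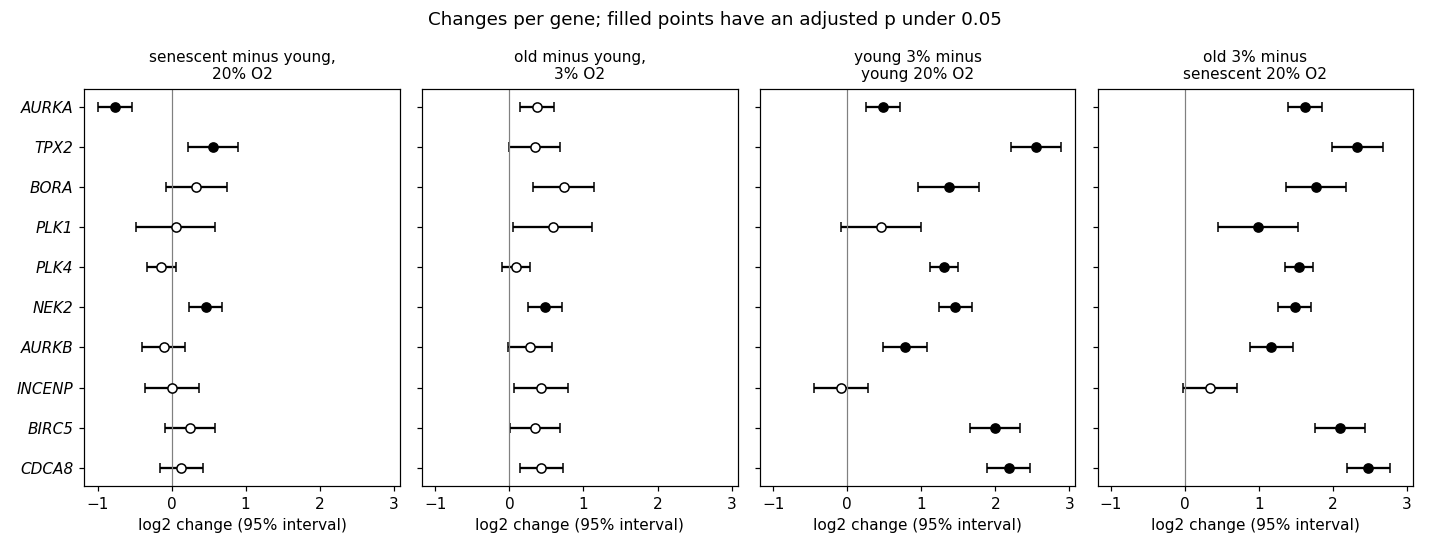
Log2 change of each gene with its 95% interval (horizontal axis) in the 4 comparisons; filled points have an adjusted p under 0.05. In the comparisons of 3% with 20% oxygen 8 and 9 of the 10 points are filled and lie right of 0, and in the passage comparisons AURKA in senescent cells is the one filled point left of 0.

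Probe sets of one gene did not always report the same change. Of the 19 probe sets, 12 were called higher in young cells at 3% than in young cells at 20%, against 4.44% of all probe sets. For BIRC5, 3 probe sets gave 2.29, 2.33 and 2.39, and 210334_x_at gave 0.97 and was not called (adjusted p = 0.0561). For PLK4, 204886_at gave 2.10 and 204887_s_at 1.75, while 211088_s_at gave 0.08. For AURKB, 209464_at gave 1.83 and 239219_at -0.27. For NEK2, 204641_at gave 2.66 and 211080_s_at 0.26. The means over the probe sets of PLK4, AURKB and NEK2 are therefore smaller than the change on their most variable probe set. INCENP was read from 219769_at alone and PLK1 from 202240_at alone, and TPX2, BORA and CDCA8 also had no further probe set. For these genes a gene that did not change cannot be told from a probe set that missed a change.

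**Figure D4:**
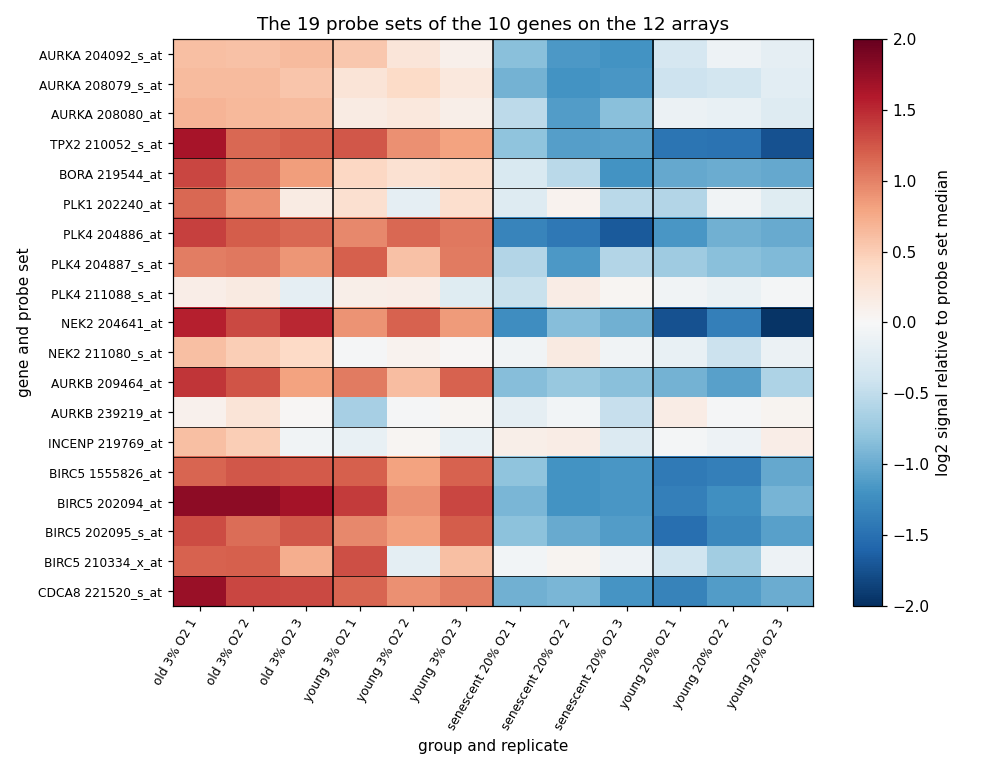
Each of the 19 probe sets (rows, by gene) on the 12 arrays (columns, by group), coloured by log2 signal relative to the probe set median from blue (-2) to red (2). Most rows are red at 3% oxygen and blue at 20%, while INCENP, PLK1 and 1 probe set each of PLK4, AURKB and NEK2 are paler. The BIRC5 probe set 210334_x_at is also paler at 20% oxygen, and the AURKA probe sets are paler in young cells.

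Old cells at 3% oxygen had higher levels of 9 of the 10 genes than senescent cells at 20% oxygen, and none was called lower, against 6.59% of all genes called higher and 4.41% called lower. Oxygen, incubator, the number of doublings and senescence all differ between these groups. The median change of the 10 genes was 1.58, against -0.02 over all genes. The arrays did not overlap in 9 of the 10, against 12.8% of all genes. CDCA8 stood at 1.72, 1.34 and 1.31 in old cells, against -0.97, -0.91 and -1.17 in senescent cells, the largest change of the 10 (2.47 ± 0.13, 5.55-fold, adjusted p = 9.3e-08). TPX2 stood at 1.64, 1.14 and 1.20 in old cells, against -0.81, -1.11 and -1.09 in senescent cells (2.33 ± 0.16, 5.02-fold, adjusted p = 5.74e-07). BIRC5 stood at 1.36, 1.34 and 1.22 in old cells, against -0.65, -0.84 and -0.89 in senescent cells (2.10 ± 0.16, 4.28-fold, adjusted p = 1.48e-06). All 3 genes were high on every old array and low on every senescent one.

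AURKA, with nearly equal old arrays, stood at 0.64, 0.62 and 0.61 in old cells, against -0.77, -1.15 and -1.07 in senescent cells. Its change was 1.62 ± 0.10 (3.07-fold, adjusted p = 3.93e-07), with 1.67, 1.71 and 1.48 on its 3 probe sets. BORA stood at 1.34, 1.09 and 0.83 in old cells, against -0.30, -0.54 and -1.19 in senescent cells, where senescent replicate 3 lay below the other two (1.77 ± 0.19, 3.4-fold, adjusted p = 3.55e-05). PLK4 (1.54 ± 0.09), NEK2 (1.48 ± 0.10) and AURKB (1.17 ± 0.14) were higher by 2.24-fold to 2.9-fold, without overlap.

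PLK1 had the smallest called change. It stood at 1.15, 0.92 and 0.16 in old cells, against -0.26, 0.07 and -0.53 in senescent cells, a change of 0.99 ± 0.25 (1.98-fold, adjusted p = 0.0205). Old replicate 3 lay close to the highest senescent array. The PLK1 call ended in 8 of 26 alternative settings. Among them were the fits without old replicate 1 (adjusted p = 0.0975), old replicate 2 (0.0833), senescent replicate 1 (0.0651) or senescent replicate 3 (0.0909). Another was the fit with the ACTB gap as a covariate (0.0594). INCENP stood at 0.59, 0.48 and -0.07 in old cells, against 0.11, 0.15 and -0.27 in senescent cells, and was not called (0.34 ± 0.17, adjusted p = 0.303, 95% interval -0.03 to 0.70). The labels name no pairs, and same-numbered arrays were taken as paired in this comparison from these data themselves. Between same-numbered arrays INCENP was higher by 0.48, 0.33 and 0.19. With the pairs as a block in these 6 arrays alone the adjusted p of INCENP was 0.0506. It was called with array weights (0.35, adjusted p = 0.0453) and without old replicate 3 (0.54, adjusted p = 0.0274).

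At 20% oxygen, senescent cells had lower levels of AURKA than young cells and higher levels of TPX2 and NEK2, and the other 7 genes were not called. Over all genes 7.84% were called lower and 4.67% higher. The median change of the 10 genes was 0.09, against 0.04 over all genes. AURKA stood at -0.77, -1.15 and -1.07 in senescent cells, against -0.29, -0.20 and -0.22 in young cells at 20%. The groups did not overlap, and the change was -0.76 ± 0.10 (1.7-fold lower, adjusted p = 0.000357), with -0.86, -0.77 and -0.65 on its 3 probe sets, each called. NEK2 stood at -0.65, -0.33 and -0.52 in senescent cells, against -0.95, -0.90 and -1.04 in young cells at 20%, also without overlap (0.46 ± 0.10, 1.38-fold, adjusted p = 0.00996). TPX2 stood at -0.81, -1.11 and -1.09 in senescent cells, against -1.46, -1.48 and -1.74 in young cells at 20% (0.56 ± 0.16, 1.48-fold, adjusted p = 0.0336). The TPX2 call ended without any 1 of the 6 arrays compared: the adjusted p was 0.142, 0.0525 and 0.0593 without senescent replicate 1, 2 and 3, and 0.0645, 0.0674 and 0.131 without young replicate 1, 2 and 3.

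BORA stood at -0.30, -0.54 and -1.19 in senescent cells, against -1.03, -0.99 and -1.02 in young cells at 20%, so that senescent replicate 3 lay below all young arrays and the other two above them (0.33 ± 0.19, adjusted p = 0.364). Without that replicate BORA was called higher (0.59, adjusted p = 0.0203). PLK4 stood at -0.79, -0.81 and -0.75 in senescent cells, against -0.64, -0.64 and -0.64 in young cells at 20%, a small difference without overlap (-0.14 ± 0.09, adjusted p = 0.451). Its probe set 204886_at was at -1.32, -1.43 and -1.68 in senescent cells, against -1.16, -0.96 and -1.01 in young cells, and was called lower (-0.43 ± 0.12, adjusted p = 0.0357), while 204887_s_at gave 0.03 and 211088_s_at -0.01. The 95% interval of the change included 0 for BIRC5 (-0.09 to 0.58), CDCA8 (-0.16 to 0.42), AURKB (-0.40 to 0.19), PLK1 (-0.48 to 0.59) and INCENP (-0.36 to 0.37). In alternative settings BIRC5 was called higher in 2 of 25 (lowest adjusted p = 0.00156) and CDCA8 in 1 of 25 (adjusted p = 0.0158). Neither was called with any 1 array left out.

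At 3% oxygen every one of the 10 genes had a positive change in old over young cells, from 0.09 for PLK4 to 0.73 for BORA, but 1 of the 10, NEK2, was called, against 0.981% of all genes called higher. The median change of the 10 genes was 0.40, against 0.05 over all genes. Positive changes were also common over all genes, where a change of 0.00097 (NFYB) ranked 11727 of 19775 from the top. Every old array lay above every young array in 5 of the 10, against 9.36% of all genes. NEK2 stood at 1.08, 0.90 and 0.96 in old cells, against 0.44, 0.63 and 0.44 in young cells (0.48 ± 0.10, 1.39-fold, adjusted p = 0.0377). Neither of its probe sets was called alone, 204641_at (0.49, adjusted p = 0.237) or 211080_s_at (0.47, adjusted p = 0.0934). The NEK2 call ended without any 1 of 9 of the 12 arrays (adjusted p = 0.0517 to 0.157) and held without young replicate 2 at 3% or senescent replicate 1 or 2. With the replicate number as a block the adjusted p of NEK2 was 0.0596. BORA stood at 1.34, 1.09 and 0.83 in old cells, against 0.42, 0.30 and 0.35 in young cells, without overlap, and was not called (0.73 ± 0.19, adjusted p = 0.0847). It was called without senescent replicate 3, which enters this comparison only through the shared estimate of spread (adjusted p = 0.012), and after quantile normalization (0.0277). AURKA stood at 0.64, 0.62 and 0.61 in old cells, against 0.32, 0.28 and 0.14 in young cells and was not called (0.38 ± 0.10, adjusted p = 0.119). INCENP stood at 0.59, 0.48 and -0.07 in old cells, against -0.16, 0.04 and -0.14 in young cells (0.42 ± 0.17, adjusted p = 0.301), and was called without old replicate 3 (0.63, adjusted p = 0.0425).

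Whether the passage change differed between oxygen levels was tested as an interaction, the change of senescent over young cells at 20% minus that of old over young cells at 3%. AURKA was called, 1 of the 10, against 4.37% of all genes called lower. Its passage change was -0.76 at 20% and 0.38 at 3%, a difference of -1.14 ± 0.15 (adjusted p = 0.000499), with -1.17, -1.10 and -1.14 on its 3 probe sets. AURKA averaged 0.62 ± 0.02 in old cells at 3%, 0.25 ± 0.09 in young cells at 3%, -0.997 ± 0.20 in senescent cells and -0.24 ± 0.04 in young cells at 20% (SD, n = 3 each). The same difference was 0.22 ± 0.22 for TPX2 (adjusted p = 0.656), -0.02 ± 0.15 for NEK2 (0.964) and -0.23 ± 0.12 for PLK4 (0.367). PLK4 was called when probe sets with a suffix for shared sequence were left out (-0.62, adjusted p = 0.0411).

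Other genes of the same pathways were read from 11 lists chosen by function. In young cells at 3% against 20%, 47 of the 103 list genes were called higher (45.6%, against 4.96% of all genes) and 4 lower (3.88%, against 6.84%). In old against senescent cells, 53 of the 103 list genes were called higher (51.5%, against 6.59% of all genes) and 3 lower (2.91%, against 4.41%). Midzone and cytokinesis genes, which PLK1 and Aurora B act on, were higher at 3% oxygen in 6 of 6 in young cells and 6 of 6 in late cells, that is, in old over senescent cells. The midzone bundling protein PRC1 was higher by 2.61 ± 0.12 in young and 2.63 ± 0.12 in late cells, and the anillin gene ANLN by 2.32 ± 0.10 and 2.36 ± 0.10. Aurora A activators and spindle pole partners were higher in 8 of 10 in young and 8 of 10 in late cells, and 1 of 10 was lower in young cells, AJUBA (-0.32 ± 0.09). The microtubule-binding protein gene HMMR was higher by 2.71 ± 0.13 and 2.78 ± 0.13, the spindle motor KIF11 by 2.18 ± 0.13 and 2.95 ± 0.13, and the Aurora A partner TACC3 by 1.37 ± 0.16 and 1.39 ± 0.16. Mitotic entry genes were higher in 7 of 10 in young and 9 of 10 in late cells, among them cyclin B1 (CCNB1, 2.11 ± 0.11 and 2.55 ± 0.11) and its kinase CDK1 (1.91 ± 0.13 and 2.54 ± 0.13).

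Partners of the passenger complex were higher in 7 of 11 in young and 9 of 11 in late cells. KIF20A, the kinesin that carries the complex to the midzone, was higher by 2.90 ± 0.15 and 2.51 ± 0.15, and the shugoshin gene SGO2 by 1.25 ± 0.11 and 1.27 ± 0.11. Centriole and linker genes were higher in 6 of 12 and 7 of 12, with the PLK4 substrate STIL at 1.49 ± 0.12 and 2.13 ± 0.12 and the cartwheel gene SASS6 at 1.11 ± 0.15 and 1.01 ± 0.15. Of genes that mark the kinases for destruction, 2 of 9 and 3 of 9 were higher, the coactivator CDC20 (1.83 ± 0.19 and 1.61 ± 0.19) and the ubiquitin-conjugating enzyme UBE2C (1.97 ± 0.18 and 2.57 ± 0.18) among them. In the proliferation list 5 of 7 and 4 of 7 were higher, and 1 of 7 and 2 of 7 lower. The lower ones were the inhibitors of cyclin-dependent kinases CDKN2A (-0.54 ± 0.13 and -1.16 ± 0.13) and, in late cells, CDKN1A (-1.67 ± 0.11). AJUBA and CDKN2A are named after their values were seen. The proliferation marker MKI67 was higher by 1.64 ± 0.14 and 1.68 ± 0.14, and the part of the share of dividing cells in the changes of the 10 genes was not tested.

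Kinase relatives and opposing phosphatases were read the same way. Of the other NEK kinases 1 of 9 was higher in young cells at 3%, NEK7 (0.33 ± 0.09, adjusted p = 0.0397), and 0 of 9 in late cells. PLK2, a Polo kinase induced by stress, was lower in young cells at 3% than at 20% (-0.76 ± 0.08, adjusted p = 5.43e-05) and lower in old than in senescent cells (-0.58 ± 0.08, adjusted p = 0.000482). It was higher in senescent than in young cells at 20% (0.68 ± 0.08, adjusted p = 0.000154) and in old than in young cells at 3% (0.86 ± 0.08, adjusted p = 0.000139). Of the phosphatase genes 1 of 12 was higher and 1 of 12 lower in young cells at 3%, CDCA2 (0.82 ± 0.14), which brings protein phosphatase 1 to chromosomes, and PPP2CB (-0.38 ± 0.11). In late cells 2 of 12 were higher, CDCA2 (0.89 ± 0.14) and PPP1CC (0.51 ± 0.08), and 0 of 12 lower. Among regulators of G2/M transcription 4 of 13 were higher in young and 5 of 13 in late cells, with the activator FOXM1 at 2.31 ± 0.22 and 2.38 ± 0.22.

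Between senescent and young cells at 20%, 7 of the 103 list genes were called higher (6.8%, against 4.67% of all genes) and 10 lower (9.71%, against 7.84%), shares close to those over all genes. Of the passenger complex partners KIF20A (0.76 ± 0.15) and STMN1 (0.38 ± 0.11) were higher and RCC2 (-0.65 ± 0.12) was lower. The mitotic entry genes CDC25A (-0.55 ± 0.12) and FBXO5 (-0.49 ± 0.14) and the centriole gene STIL (-0.58 ± 0.12) were lower. The phosphatase genes PPP2CA (-0.47 ± 0.10), PPP6C (-0.33 ± 0.10) and PPP1CC (-0.28 ± 0.08) and the G2/M regulators RBBP4 (-0.47 ± 0.13), NFYB (-0.43 ± 0.11) and NFYA (-0.30 ± 0.08) were lower. CDKN1A (1.76 ± 0.11, adjusted p = 6.17e-07), CDKN2A (0.47 ± 0.13), ANLN (0.34 ± 0.10) and AURKC (0.37 ± 0.10) (another Aurora kinase) were higher. Between old and young cells at 3%, 4 of the 103 list genes were called higher (3.88%, against 0.981% of all genes) and 1 lower (0.971%, against 0.759%). CDK1 (0.64 ± 0.13, adjusted p = 0.0302), ECT2 (0.63 ± 0.14, 0.049) and KIF23 (0.51 ± 0.11, 0.0406) were higher, beside PLK2, and the replication gene MCM2 was lower (-0.67 ± 0.15, 0.04998). In the interaction, 1 of the 103 list genes was called higher (0.971%, against 2.06% of all genes) and 4 lower (3.88%, against 4.37%). KIF11 (-0.77 ± 0.19), STIL (-0.65 ± 0.16), CENPA (-0.92 ± 0.20) and KIF23 (-0.64 ± 0.16) were the lower ones, and CDKN1A was the higher one (1.39 ± 0.16, adjusted p = 0.000161).

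**Figure D5:**
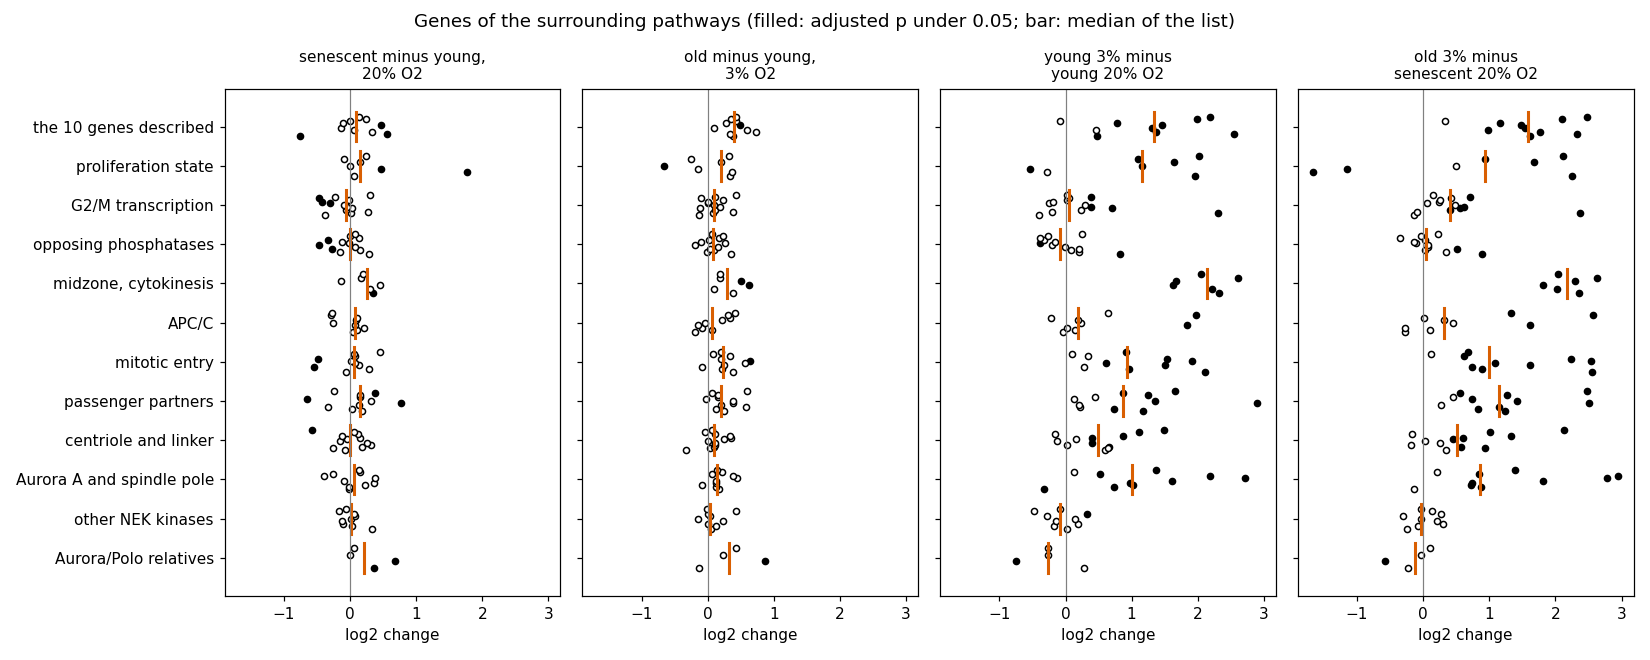
Log2 change of each measured gene (horizontal axis) in the pathway lists (rows) for the 4 comparisons; filled points have an adjusted p under 0.05, and bars are list medians. The midzone list lies wholly right of 0 in both comparisons of 3% with 20% oxygen, with medians of 2.13 and 2.17.

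Markers of other cell types and of fibroblasts were read beside these results. Endothelial (5 measured) and immune markers (3 measured) had no call in any of the 4 comparisons, and of 6 epithelial markers 1 was lower in young cells at 3% against 20% and none was called in the others. Of 8 fibroblast markers 3 were lower in young cells at 3% against 20%, 2 were higher and 1 lower in old against senescent cells, 4 were lower in senescent against young cells, and 0 were called in old against young cells. Of 5 pericyte and smooth muscle markers 1 was higher and 1 lower in young cells at 3% against 20%, 2 were higher and 1 lower in old against senescent cells, 1 was higher in old against young cells, and 0 were called in senescent against young cells. The shares over all genes in the same comparisons are those given above. The part of these markers in the results was not tested.

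Genes outside the 10 were ranked by likeness, the root mean square difference over the 12 arrays in log2 units, with each gene centred on its own mean. The mean of the 10 genes was closest to ANP32E (0.0966), TRIM59 (0.1) and NDC1 (0.122). CDCA8 was closest to ANLN (0.124), SPC25 (0.154) and TOP2A (0.163), and BIRC5 to TOP2A (0.169), KIF23 (0.186) and CKS1B (0.193). TPX2 was closest to CDKN3 (0.16), CKAP2L (0.191) and ASPM (0.194), and NEK2 to SOCS2 (0.163), CENPF (0.186) and CKS2 (0.195). PLK4 lay nearest to NDC1 (0.12), PCLAF (0.123) and KPNA2 (0.133). AURKA lay nearest to PRTFDC1 (0.135), VCAN (0.142) and SPIN4 (0.152). Its first neighbour PRTFDC1 averaged 0.42 in old cells at 3%, 0.23 in young cells at 3%, -1.24 in senescent cells and -0.30 in young cells at 20%, lowest in senescent cells as AURKA was. BORA lay nearest to ANXA3 (0.16), PDE7B (0.224) and ECT2 (0.228), and AURKB to GAS2L3 (0.115), DYNC2I2 (0.128) and RPA3 (0.136). PLK1 lay nearest to ARHGAP19 (0.211), FLRT1 (0.219) and CHAC1 (0.221), and INCENP to LINC01138 (0.0892), HRCT1 (0.0953) and ZFYVE19 (0.101).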

How the data were processed

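Total RNA was hybridised to 12 Affymetrix arrays. The authors deposited log2 values processed with RMA, per the submitters' processing notes, with no version stated; the log base is not stated and was taken as log2. Each of the 54675 probe sets had a median of 0 over the 12 arrays (tolerance 1e-06), so the deposited values are centred and hold no absolute level. Probe sets naming 1 gene (41091) were averaged per gene (19775 genes). Changes were tested with limma 3.58.1 (R 4.3.3) on all 12 arrays, with group as the only term and Benjamini-Hochberg adjustment over all genes. The script was tested on simulated data. The 10 genes, the lists and the rules were chosen with earlier results of these data known. Genes named from a list were among the 4 with the largest absolute change in that list and comparison, except 2 named after their values were seen. Same-numbered replicates deviated together between the old and the senescent group (correlations of 0.129, 0.519 and 0.669), which was taken as pairing there, and not in every pair of any other 2 groups. The labels do not state this pairing, which was chosen from the same data. Alternatives covered probe set summaries, normalization, array weights, the replicate block, RNA quality, thresholds and leaving out each array. Protein sequences were not used here.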

Additional observations from a re-analysis of the deposited data

Results flagged for a closer look

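AURKA changed differently with passage at the 2 oxygen levels, by the test of the difference itself. The change of senescent over young cells at 20% minus that of old over young cells at 3% was -1.14 ± 0.15 on the log2 scale (SE, adjusted p = 0.000499 in limma), and leaving out any 1 array gave -1.25 to -1.06. The 2 sides also differ in doublings (48 at 20% and 53 at 3%) and in senescence, which cannot be told apart from oxygen here.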

How the results depend on the processing

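Of 1250 values of the 10 genes under an alternative, 1173 kept their direction and side of the threshold, 38 lost and 15 gained a call, and 24 changed sign, 0 of those called. The number of the 10 genes called in senescent against young cells at 20% was 3, 7 with array weights, 0 with a log2 change of at least 1 required, and 2 to 3 with 1 array left out. In old against young cells at 3% it was 1, and 0 with the probe set of largest SD, without probe sets with a suffix for shared sequence, with the replicate block, with flat genes left out, with these groups fitted alone, at an adjusted p under 0.01 or with a log2 change of at least 1, and 0 to 1 with 1 array left out. The gene called there was not always NEK2, which lost its call in 17 of 25 alternatives. Without senescent replicate 3 BORA was called and NEK2 was not, and without old replicate 3 INCENP was called and NEK2 was not. The number called was 8 in young cells at 3% against 20% (the same with any 1 array left out, 8 to 8), 9 in old against senescent cells (8 to 10) and 1 in the interaction (1 to 1, and 2 without probe sets with that suffix). With the replicate block the NEK2 change in old cells was 0.48 (adjusted p = 0.0596), and in the paired old and senescent arrays alone the block gave 9 called genes; it changed no other call. Changes of sign in senescent against young cells were 0.074 for AURKB with the probe set of largest SD, 0.033 for PLK4 with the median of probe sets, and -0.013 for INCENP with array median centring. With 1 array left out INCENP ran from -0.075 to 0.14 and PLK1 from -0.098 to 0.20. PLK4 was -0.027 in old against young cells after quantile normalization. In the interaction NEK2 was 0.18 with the probe set of largest SD and without suffixed probe sets and 0.12 after quantile normalization (-0.10 to 0.057 with 1 array left out), and BIRC5 was 0.042 with the median of probe sets, 0.16 after quantile normalization, 0.087 with array weights and 0.15 with the ACTB covariate (-0.23 to 0.084 with 1 array left out). The cause was not tested. Over all genes the calls in senescent against young cells ran from 1477 at an adjusted p under 0.01 to 6203 with array weights, around 2474, and in old against young cells from 124 with the groups alone to 489 with array weights, around 344. Signal over background cannot be read from centred values.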
